A study of Homo sapiens with 6 samples.

Results

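Interferon-stimulated genes are genes whose transcription rises when a cell senses an interferon, and 44 of them, listed by symbol, were followed here in the glioblastoma line U87. All 44 symbols were found among the 23290 gene rows of the deposited table. RNA came from 3 U87 samples that had received a scramble vector by retrovirus (shCTR) and from 3 in which a retrovirus carried the vector for silencing Caspase-8 (shC8). All 6 samples were therefore infected with a retrovirus, and no uninfected sample was analysed here. The cells grew in DMEM with 10% serum, no added interferon is named in the labels, and how many hairpins or clones were used is not stated in those labels. The submitters call the 3 samples of each group biological replicates but do not say whether they were separate cultures, so the p-values reflect sample-to-sample spread that may be technical. Values are FPKM, fragment numbers scaled to transcript length and to the size of the library. In bulk RNA a lower share of expressing cells and less RNA per cell cannot be told apart.

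Type I interferons bind the receptor pair IFNAR1 and IFNAR2, whose kinases JAK1 and TYK2 phosphorylate STAT proteins. STAT2 and IRF9 are parts of a complex that binds the interferon-stimulated response element (ISRE), while interferon gamma acts through STAT dimers at the gamma-activated site (GAS). The proteins made from these genes block steps of virus replication, sense foreign RNA or dampen the response itself. Many of them also have a basal level in cells that have met no interferon.

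Short promoter stretches that match the core letters of the ISRE or the GAS are shown first. Members that lie side by side and hold the same core did not all move together in the results that follow. The windows are RefSeq promoter windows (build GRCh38.p14), from 250 bases before to 50 bases after a transcript start. They were searched on both strands for the ISRE core (GAAA, 2 bases of any kind, GAAA) and the GAS core (TTC, 3 bases of any kind, GAA). The 2 patterns can share bases. A window was found for 35 of the 44 genes, under the newer symbol RIGI for DDX58. No window was matched for OAS2, OASL, IFIT2, IFITM2, USP18, IRF7, GBP2, MX2 and TRIM22. Each line gives the strand of the gene, with the matched core in capitals.
IFI44: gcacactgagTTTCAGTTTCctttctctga
IFI44L: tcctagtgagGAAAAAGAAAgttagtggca
OAS3: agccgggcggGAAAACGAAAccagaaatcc
IFIT1: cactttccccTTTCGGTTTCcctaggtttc
IFIT5: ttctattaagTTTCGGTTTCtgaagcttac
IFITM3: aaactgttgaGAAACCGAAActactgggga
ISG15: tcgggaaaggGAAACCGAAActgaagccaa
PARP9: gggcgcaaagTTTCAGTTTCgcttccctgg
DTX3L: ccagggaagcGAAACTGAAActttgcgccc
IFI6: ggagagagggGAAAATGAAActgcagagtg
LGALS3BP: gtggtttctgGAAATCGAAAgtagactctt
IFI35 (GAS core): aggcagggatTTCACGGAAatgaaagtgg

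These stretches lie at chr1:78649761-78649790 for IFI44, chr1:78620274-78620303 for IFI44L, chr12:112938452-112938481 for OAS3, chr10:89392510-89392539 for IFIT1 and chr10:89414513-89414542 for IFIT5, all on the plus strand. Those of IFITM3 (chr11:320876-320905), PARP9 (chr3:122564322-122564351), IFI6 (chr1:27672288-27672317) and LGALS3BP (chr17:78979962-78979991) are on the minus strand. ISG15 (chr1:1013380-1013409), DTX3L (chr3:122564322-122564351) and IFI35 (chr17:43006752-43006780) are on the plus strand. PARP9 and DTX3L share the same bases, read from opposite strands. IFI44L holds the printed stretch in a second copy at chr1:78620365-78620394.

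The ISRE core was present in windows of 24 of 35 matched genes (68.6%), against 4.38% of all 27305 genes with a window. The GAS core was present for 10 of 35 (28.6%), against 9.38% of all genes. The genes were listed for their known response to interferon, so these shares are not independent of that choice, and a match is a description and not a shown binding site. The ISRE core was found for 6 of 7 matched genes called higher in shC8, for 2 of 2 called lower and for 10 of 17 that were tested and not called. Genes of opposite direction thus carried the same core.

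**Figure D1:**
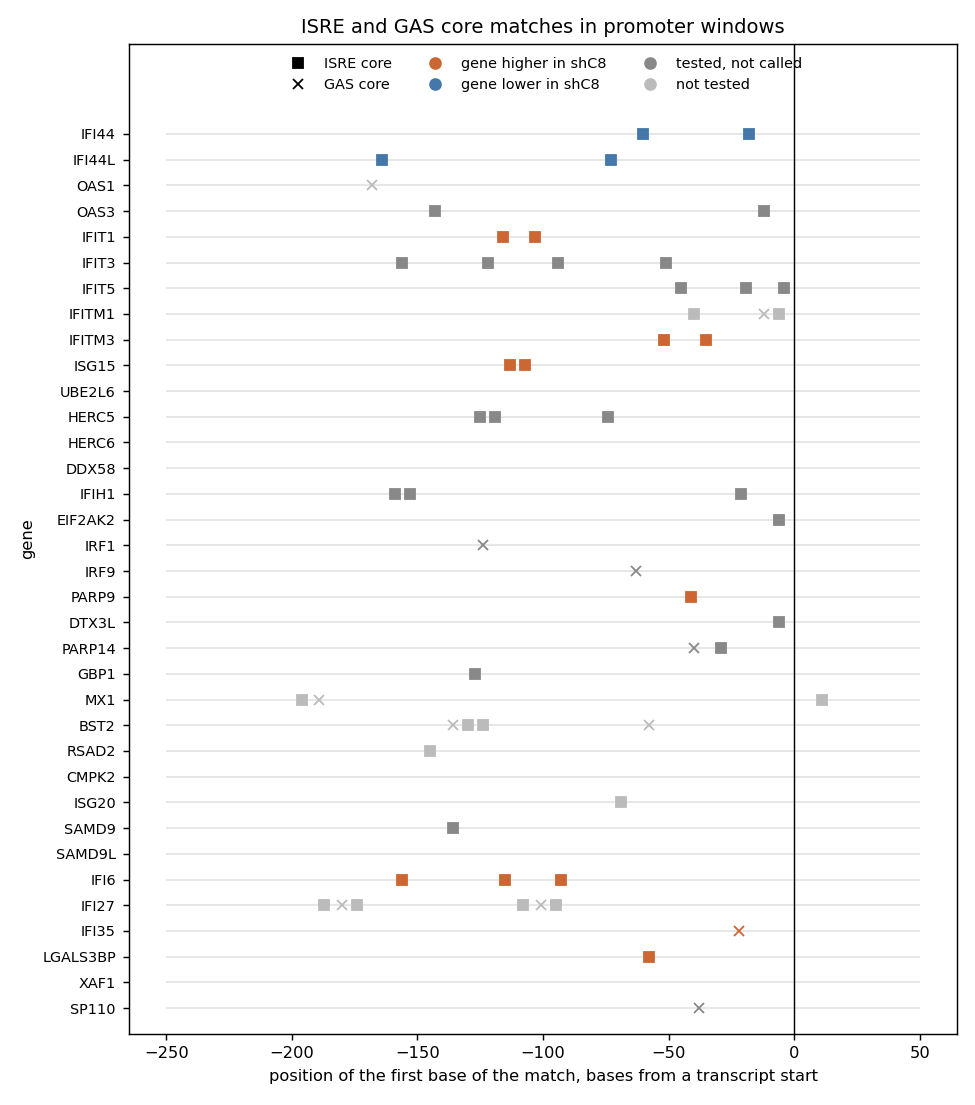
Position of ISRE core matches (squares) and GAS core matches (crosses) in the promoter windows of 35 genes, as the distance in bases of the first matched base from a transcript start, coloured by the call of the gene in shC8 against shCTR. IFI44 and IFI27 have 2 windows that cover the same matches from different starts, and both the fallen genes IFI44 and IFI44L and the risen genes IFIT1, IFITM3, ISG15, PARP9, IFI6 and LGALS3BP hold ISRE squares.

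CASP8, the targeted gene, fell to 30.6% of its control mean in the shC8 libraries (exact two-sided permutation p = 0.1, the smallest that 3 against 3 libraries allow). Columns summed to between 489055 and 516634 FPKM, absolute depth is unknown, and steps among low values put the depth of the other libraries at 1.1 to 1.2 times that of shCTR 1. The mesenchymal markers fixed for the labelled cell summed to 5693 to 6980 FPKM in shCTR and 5761 to 6399 in shC8, most of it VIM. Of these 8 markers SPARC (1.82-fold), NES (1.59-fold) and TNC (1.36-fold) were called higher in shC8 by limma and CD44 lower, at 0.733 times the control mean, and their part in the results was not tested. The glial markers GFAP, OLIG2 and S100B stayed at or below 0.511 FPKM. Of 8 leukocyte markers, CD68 alone was expressed, and the other 7 were at or below 0.315 FPKM, CD3E and TYROBP among those at 0 in every library. The leukocyte list summed to 148 to 157 FPKM in shCTR and 135 to 152 in shC8. The glial list, nearly all SLC1A3, summed to 9.78 to 12.5 FPKM in shCTR and 4.91 to 6.46 in shC8, and the endothelial list to 1.63 to 2.15 and 0.919 to 1.39. Both were thus lower in shC8, and their part in the results was not tested. By the long numbers that the authors kept in the column names, shCTR 1, shCTR 3 and shC8 1 form a lower range and shCTR 2, shC8 2 and shC8 3 an upper one, with no stated meaning.

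Some members rose and others fell in shC8, and most did not pass the test. IFITM3, IFI6, GBP2, IFIT1, LGALS3BP, ISG15, PARP9 and IFI35 rose, and IFI44L, OASL and IFI44 fell. The test was limma's moderated test on log2(FPKM + 1), run on the 11598 genes that averaged 1 FPKM or more. A gene was called where its p after Benjamini-Hochberg adjustment was under 0.05, and all changes below are on that scale unless said otherwise. Of the 44 members, 34 passed the filter and 10 did not. Among the 34, 8 were called higher (23.5%) where 7.14% of all tested genes were, and 3 lower (8.82%) where 4.94% were. In either direction 11 of 34 (32.4%) were called, where 12.1% of all tested genes were. The members were listed with earlier results of these data known, so these shares are not independent of that choice. The groups did not overlap for 17 of the 34, or 50%, and for 34.8% of all tested genes. Of all calls 59.1% were higher, a share of 49.3% with quantile normalization and 46.2% with median-of-ratios scaling. The median change of the 34 was 0.09, against 0.04 over all tested genes. It was 0.0129 with quantile normalization, 0.0628 with median-of-ratios scaling and 0.0553 without shC8 1. Counted over all 44 with no filter, 29 had a higher mean FPKM in shC8 and 15 a lower one. Among the 34 tested members 58.8% had a positive change, near the 57.9% of all tested genes.

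**Figure D2:**
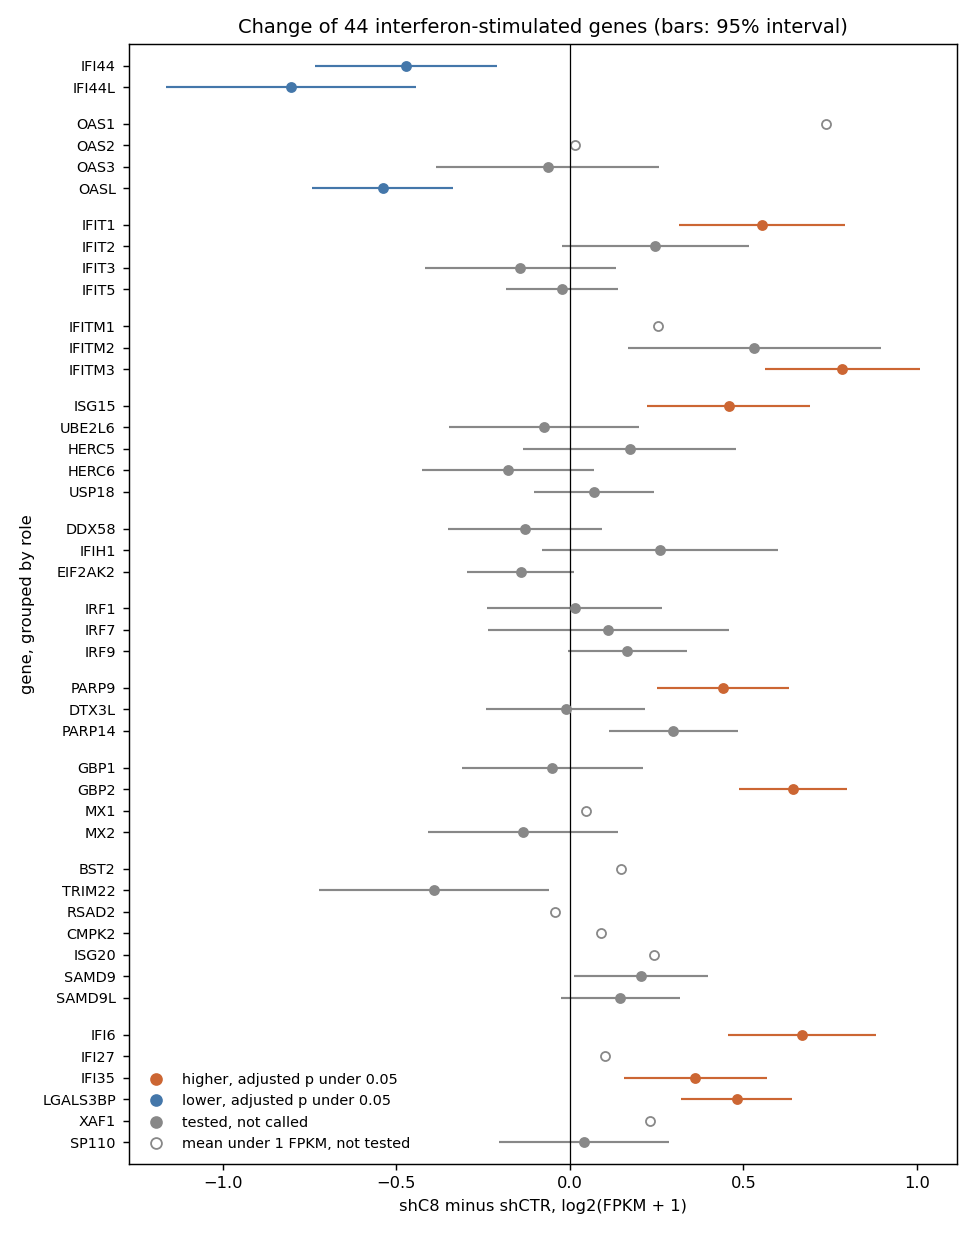
Change in shC8 against shCTR on the log2(FPKM + 1) scale for the 44 genes, grouped by role, with 95% intervals from limma for the 34 tested genes and open points without an interval for the 10 below a mean of 1 FPKM. Called changes run from -0.80 (IFI44L) to 0.78 (IFITM3).

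Both genes of the IFI44 group fell. IFI44 and IFI44L encode related proteins of the interferon response, lie 3.7 kb apart on chromosome 1 on the same strand and shared none of their 50-base words with other genes. In libraries shCTR 1, 2 and 3 the level of IFI44L was 7.82, 8.16 and 6.32 FPKM, and in libraries shC8 1, 2 and 3 it was 4.49, 4.28 and 2.84. Values of other genes follow in the same library order. Every shC8 library was below every shCTR library, with shC8 3 the lowest. The change was -0.80 (SE 0.154, limma adjusted p = 0.0192). IFI44 measured 35.8, 40.8 and 38.4 FPKM in the shCTR libraries against 32.4, 26.3 and 23.9 in the shC8 libraries, a change of -0.47 (SE 0.112, limma adjusted p = 0.0366). Its groups did not overlap either, but shC8 1 came close to shCTR 1. For IFI44 the difference was -0.19 in the lower number range and -0.68 in the upper one, and for IFI44L it was -0.55 and -1.02. The IFI44L call ended without shCTR 1 or shCTR 2 (limma adjusted p up to 0.0661). The IFI44 call ended without any library except shC8 1 (up to 0.111) with a term for the number range (0.0602) and with no filter on low values (0.0778). IFI44 was the more abundant member in each library, at 4.58 to 6.07 times IFI44L in shCTR and 6.13 to 8.43 times in shC8.

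The OAS group held 1 gene that fell, 1 low gene with higher values in shC8 and 2 without a clear difference. OAS1, OAS2 and OAS3 encode synthetases that sense double-stranded RNA and make the 2'-5' oligoadenylates which activate RNase L. OASL is a relative without that enzymatic activity that is known to enhance signalling by the RNA sensor RIG-I. OASL fell, from 10.4, 10.7 and 9.19 FPKM in shCTR to 7.07, 6.03 and 6.86 in shC8. No shC8 library reached the lowest control, and the change was -0.54 (SE 0.0871, limma adjusted p = 0.0112), called in all 6 fits without 1 library. OAS1 measured 0.298, 0.336 and 0.264 FPKM in the shCTR libraries against 1.44, 1.39 and 0.739 in the shC8 libraries. Its mean was 3.97-fold higher in shC8 and the groups did not overlap, with shC8 3 near the middle between the control and the other shC8 libraries.

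OAS1 had a mean of 0.744 FPKM, below the filter of 1 FPKM, so it was not among the genes tested. At this level its values may stand for few reads, which limits its fold and its share of the group below. With no filter on low values its change was 0.74 (limma adjusted p = 0.0411), where 3.08% of 18724 genes were called higher. OAS2 measured 0.649, 0.88 and 0.612 FPKM in the shCTR libraries against 0.865, 0.722 and 0.602 in the shC8 libraries, which overlap. OAS3 measured 1.86, 1.26 and 1.19 FPKM in the shCTR libraries against 1.38, 1.52 and 1.06 in the shC8 libraries, a change of -0.06 (95% interval -0.39 to 0.26, limma adjusted p = 0.795). OAS1, OAS3 and OAS2 lie in this order on one strand of chromosome 12, with gaps of 5.1 kb, while OASL lies 8007 kb beyond OAS2. The groups were thus apart for the first gene of the row and overlapped for the other two. The share of OASL in the summed FPKM of the group was 80.6% in shCTR and 67.4% in shC8, and that of OAS1 was 2.38% and 11.9%.

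One of 4 IFIT genes was called. The IFIT proteins bind foreign RNA ends or the translation machinery, and their genes form a cluster on chromosome 10. IFIT1, which recognises viral RNA that lacks the host's cap methylation, rose from 3.5, 3.93 and 4.39 FPKM in shCTR to 7.05, 5.72 and 6 in shC8. The change was 0.55 (SE 0.103, limma adjusted p = 0.0169). The groups did not overlap, and the call ended without shCTR 1, shCTR 2 or shC8 3 (limma adjusted p up to 0.0573). IFIT2, at 2.08, 1.61 and 1.37 FPKM in shCTR and 2.2, 2.26 and 2.05 in shC8, had a change of 0.25 (95% interval -0.02 to 0.51, limma adjusted p = 0.2). IFIT3, a partner protein of IFIT1, measured 7.89, 8.08 and 5.97 FPKM in the shCTR libraries against 6.75, 6.88 and 5.84 in the shC8 libraries. Its change was -0.14 (95% interval -0.42 to 0.13).

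IFIT5 was the most abundant of the cluster and the most even. It measured 17.1, 15.5 and 15.6 FPKM in the shCTR libraries against 16.7, 15.1 and 15.5 in the shC8 libraries, a change of -0.02 (95% interval -0.18 to 0.14). IFIT5 lies 8.1 kb from IFIT1 on the same strand. IFIT5 was 3.55 to 4.87 times IFIT1 in shCTR and 2.37 to 2.65 times in shC8, and IFIT3 was 1.36 to 2.25 times IFIT1 in shCTR and 0.958 to 1.2 times in shC8. Neither ratio overlapped between the groups.

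All 3 IFITM genes had higher values in shC8. IFITM proteins sit in cell and endosome membranes and hinder the fusion of enveloped viruses. IFITM3, the endosomal member, rose from 26.1, 29.8 and 23.9 FPKM in shCTR to 45.2, 50.5 and 43.6 in shC8, 1.75-fold. The change of 0.78 (SE 0.0958, limma adjusted p = 0.00465) was the largest rise among the tested members, and it was called in all 6 fits without 1 library. IFITM2 measured 6.61, 10.1 and 7.38 FPKM in the shCTR libraries against 11.6, 13.9 and 10.4 in the shC8 libraries. Its groups were barely apart, since shCTR 2 came close to shC8 3, and the change was 0.53 (SE 0.156, limma adjusted p = 0.0672). With the replicate number as a block IFITM2 was called (limma adjusted p = 0.0072), as it was without shCTR 2.

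For IFITM1 the table lists 0 in each shCTR library, and 0.242, 0.229 and 0.11 FPKM in the shC8 libraries, so no fold is given. With no filter on low values its change was 0.25 (limma adjusted p = 0.0368), where 3.08% of 18724 genes were called higher. At this level the values may stand for few reads, and the control values had no spread. IFITM2 and IFITM1 overlap on one strand of chromosome 11, and IFITM3 lies 4.4 kb from IFITM1 on the other strand. Of the 50-base words in GENCODE transcripts of IFITM1, IFITM2 and IFITM3, 32%, 34.1% and 17.4% occur in other genes as well, mostly each other. How the authors' estimator divided such reads was not given, so the values of these 3 genes are not separate measurements in full. A non-coding gene on the opposite strand covers 21.3% of the exonic bases of IFITM3. The ratio of IFITM3 to IFITM2 was 2.96 to 3.95 in shCTR and 3.63 to 4.2 in shC8, which overlap.

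**Figure D3:**
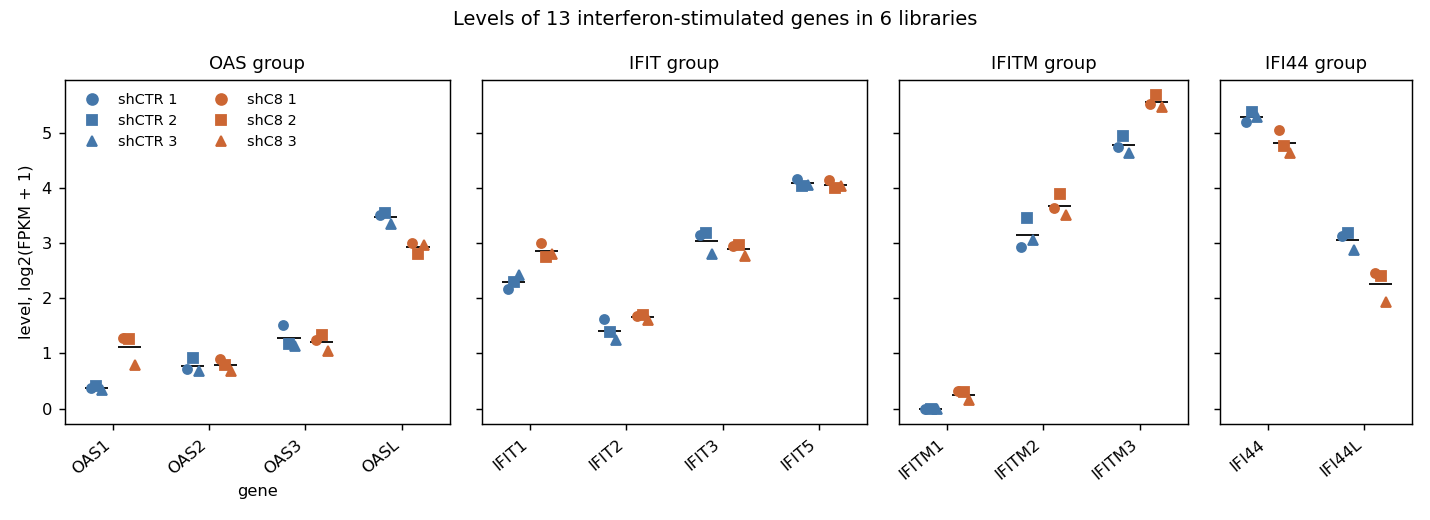
Level of each OAS, IFIT, IFITM and IFI44 gene as log2(FPKM + 1) in the 3 shCTR (blue) and 3 shC8 (orange) libraries, with marker shapes for replicate numbers and bars for group means. IFITM3 and IFIT1 lie higher and OASL, IFI44 and IFI44L lower in all shC8 libraries, while OAS3, IFIT3 and IFIT5 overlap.

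Set against each other, the summed FPKM of the 4 groups moved in different directions. The IFITM sum went from 34.6 ± 4.63 to 58.6 ± 5.48 FPKM (SD, n = 3 each) and the IFI44 sum from 45.7 ± 2.8 to 31.4 ± 5.12. The IFI44 sum was above the IFITM sum in every shCTR library and below it in every shC8 library. The OAS sum went from 12.6 ± 1.14 to 9.9 ± 0.768 and the IFIT sum from 29 ± 1.61 to 30.7 ± 1.74. The IFIT ranges overlapped, and the other 3 did not. Each of those 3 sums was mostly a single called gene, which it largely restates. Mean shares in shCTR and shC8 were 83.8% and 87.7% for IFI44, 77% and 79.3% for IFITM3 and 80.6% and 67.4% for OASL. Median changes of the tested genes were 0.66 for IFITM (2 tested), 0.11 for IFIT (4 tested), -0.30 for OAS (2 tested) and -0.64 for IFI44 (2 tested), with 0.04 over all genes. With no filter the OAS median was -0.0249. The IFIT median was 0.18 without shCTR 1, 0.0596 without shCTR 3, 0.0608 with quantile normalization and 0.17 with a pseudocount of 0.1. These sums and medians are descriptions without a test.

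Within a library the ratio of 2 genes does not depend on the library total, so 10 such ratios were compared between groups. IFI44 was 1.37 to 1.61 times IFITM3 in shCTR and 0.52 to 0.717 times in shC8. IFI44L was 1.44 to 2.23 times IFIT1 in shCTR and 0.473 to 0.75 times in shC8. OASL was 31.9 to 35 times OAS1 in shCTR and 4.34 to 9.29 times in shC8. OAS1 was at 0.264 to 0.336 FPKM in shCTR and below the filter, so this ratio rests on low values. The pairs were chosen with these values known and several set a called gene against one that was not called or moved the other way, so the ratios restate those calls in part and are a description. The ratios of OASL to OAS3 and of IFITM3 to IFITM2 overlapped between the groups. For each of the others the exact two-sided permutation p was 0.1, the smallest possible here, and 0.125 after Benjamini-Hochberg adjustment over the 10.

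**Figure D4:**
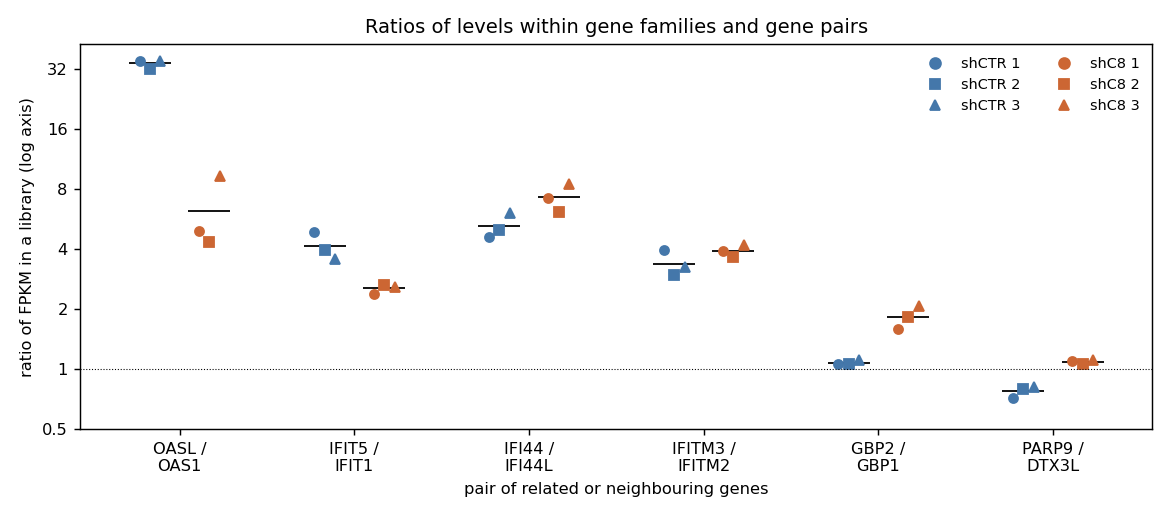
Ratio of FPKM between 2 related or neighbouring genes in each library, on a log axis, with shCTR in blue, shC8 in orange and bars for group means. The ratio of OASL to OAS1 lies near 34 in shCTR and at 4.34 to 9.29 in shC8. The mean of OAS1 was below the filter of 1 FPKM. The IFITM3 to IFITM2 ratio overlaps between groups.

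RNA of ISG15, which encodes a ubiquitin-like protein, rose, while the listed genes for enzymes that attach or remove the protein did not pass. ISG15 measured 6.78, 6.93 and 6.24 FPKM in the shCTR libraries against 11, 8.51 and 9.1 in the shC8 libraries, a change of 0.46 (SE 0.1, limma adjusted p = 0.0293). All shC8 libraries lay above the controls, shC8 1 the farthest. The difference was 0.68 in the lower number range and 0.30 in the upper one. The call ended without shCTR 1, shCTR 2, shCTR 3 or shC8 3 (limma adjusted p up to 0.0784).

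UBE2L6, the conjugating enzyme for ISG15, was among the most abundant members, at 69, 61.2 and 60.5 FPKM in shCTR and 71.8, 57.5 and 52.8 in shC8. Its change was -0.07 (95% interval -0.35 to 0.20). The ligase gene HERC5 had a change of 0.17 (95% interval -0.14 to 0.48) and its neighbour HERC6 one of -0.18 (95% interval -0.43 to 0.07). USP18, which removes ISG15 and restrains the type I receptor, was even at 5.22, 5.17 and 5.36 FPKM in shCTR and 5.55, 5.95 and 5.19 in shC8. USP18 shares 23% of its 50-base words with USP41, so its reads may have been divided.

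None of the RNA sensors or interferon regulatory factors on the list was called. DDX58 (RIG-I), which senses viral RNA ends, measured 8.28, 8.12 and 7.78 FPKM in the shCTR libraries against 8.33, 7.28 and 6.36 in the shC8 libraries. Its change was -0.13 (limma adjusted p = 0.402). IFIH1 (MDA5), a sensor of long double-stranded RNA, had a change of 0.26 (limma adjusted p = 0.276) from levels between 1.3 and 1.98 FPKM in shCTR. EIF2AK2 (PKR), the kinase that halts translation, measured 18.5, 16.5 and 16.7 FPKM in the shCTR libraries against 15.4, 15.4 and 15.7 in the shC8 libraries. Its groups did not overlap, and the change of -0.14 did not pass (95% interval -0.30 to 0.01, limma adjusted p = 0.199).

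IRF9, the DNA-binding partner of STAT2, had a change of 0.17 (95% interval -0.01 to 0.34, limma adjusted p = 0.179). Its groups did not overlap. An annotated protein-coding transcript model on the same strand covers 48.4% of its exonic bases, so its FPKM may include other reads. IRF1, of whose exonic bases 22% lie opposite another gene, changed by 0.01 (95% interval -0.24 to 0.27) and IRF7, which amplifies interferon production, by 0.11 (95% interval -0.24 to 0.46).

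PARP9 rose and DTX3L, with which it shares a promoter region, did not pass. PARP9 and DTX3L proteins act as a pair, an ADP-ribosyltransferase with an E3 ubiquitin ligase, and their genes start in opposite directions on chromosome 3 with 217 exonic bases in common. PARP9 measured 9.43, 8.63 and 9.13 FPKM in the shCTR libraries against 14, 12.3 and 11.7 in the shC8 libraries, a change of 0.44 (SE 0.0819, limma adjusted p = 0.0169). Its call ended without shCTR 2 or shC8 2 (limma adjusted p up to 0.0627). DTX3L measured 13.2, 10.9 and 11.2 FPKM in the shCTR libraries against 12.8, 11.6 and 10.5 in the shC8 libraries, a change of -0.01 (95% interval -0.24 to 0.22).

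DTX3L was the higher of the pair in each shCTR library and PARP9 in each shC8 library. The ratio of PARP9 to DTX3L was 0.715, 0.793 and 0.816 in shCTR and 1.1, 1.06 and 1.11 in shC8. The DTX3L window and 1 of the 2 PARP9 windows hold the ISRE core printed for them above. PARP14, another ADP-ribosyltransferase gene 105.4 kb from DTX3L, measured 11, 10.1 and 9.38 FPKM in the shCTR libraries against 13.4, 12.8 and 11.9 in the shC8 libraries. Its groups did not overlap, and the change of 0.30 lay just outside the threshold (SE 0.0795, limma adjusted p = 0.0509). PARP14 was called with the replicate block (limma adjusted p = 0.0124) with a pseudocount of 0.1 (0.0487) and with a minimum mean of 5 FPKM (0.0468).

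Among the GTPases, GBP2 rose and its neighbour GBP1 did not pass. Guanylate-binding proteins attack membranes around intracellular pathogens and are known to respond strongly to interferon gamma. GBP2 measured 10.5, 10.6 and 9.59 FPKM in the shCTR libraries against 16.6, 17 and 15.9 in the shC8 libraries, 1.62-fold higher. The 3 libraries of each group were close together, and the change of 0.64 (SE 0.0663, limma adjusted p = 0.00266) was called in all 6 fits without 1 library. GBP1, 40.8 kb away on the same strand, measured 9.89, 9.93 and 8.63 FPKM in the shCTR libraries against 10.5, 9.35 and 7.7 in the shC8 libraries. Its change was -0.05 (95% interval -0.31 to 0.21).

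The ratio of GBP2 to GBP1 was 1.06, 1.06 and 1.11 in shCTR and 1.59, 1.82 and 2.07 in shC8. The overlapping gene GBP7 holds 9.15% of the 50-base words of GBP2. MX1 and MX2, which encode dynamin-like antiviral GTPases, were low. MX1 lay between 0.298 and 0.423 FPKM over the 6 libraries and was not tested, and MX2 had a change of -0.14 (95% interval -0.41 to 0.14).

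Apart from the IFITM genes, 7 members were grouped as restriction factors, and none of the 3 that passed the filter was called. TRIM22, an E3 ligase gene of the tripartite motif family, measured 37.4, 27.5 and 31 FPKM in the shCTR libraries against 28.7, 21 and 22.7 in the shC8 libraries. The differences in the 3 same-numbered pairs were -0.37, -0.37 and -0.44, while the groups overlapped. The change of -0.39 did not pass (SE 0.142, limma adjusted p = 0.117), and with the replicate block it did (limma adjusted p = 0.00468). SAMD9 and SAMD9L, neighbouring genes on chromosome 7 whose proteins restrict poxviruses, had changes of 0.20 and 0.15 (limma adjusted p = 0.145 and 0.233). Their groups were barely apart, with shCTR 3 at 20.2 and shC8 1 at 20.3 FPKM for SAMD9. For SAMD9L, shCTR 3 was at 7.09 and shC8 3 at 7.13 FPKM. SAMD9 was called with the replicate block (limma adjusted p = 0.0409).

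BST2 (tetherin, which holds budding viruses at the cell surface), RSAD2 (viperin), CMPK2 and the exonuclease gene ISG20 were all below the filter. RSAD2 was the lowest member, at 0.0383, 0.0585 and 0.0285 FPKM in shCTR and 0.0147, 0.00713 and 0.0136 in shC8. RSAD2 did not overlap between the groups, but at this level the values may stand for few reads, and no fold is given. BST2 lay between 0 and 0.396 FPKM, CMPK2 between 0.149 and 0.46 and ISG20 between 0.322 and 0.928, each with overlapping groups. Several genes known as strongly induced by interferon (MX1, RSAD2, BST2, IFI27, CMPK2 and IFITM1) were thus at or below 0.46 FPKM in every library. Other members were not low, with means over all libraries of 47.5 FPKM for IFI6, 32.9 for IFI44 and 8.1 for ISG15. Of the 44 members, 10 averaged under 1 FPKM, 21 from 1 to 10 and 13 above 10.

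Of the remaining members, IFI6, LGALS3BP and IFI35 rose. IFI6, which encodes a small membrane protein that protects cells from apoptosis and from flaviviruses, measured 40.1, 37.7 and 31.9 FPKM in the shCTR libraries against 56.6, 61.4 and 57.4 in the shC8 libraries. The change was 0.67 (SE 0.0914, limma adjusted p = 0.00654), 1.6-fold in mean FPKM. LGALS3BP, a secreted glycoprotein gene and the most abundant member, measured 66.4, 65.1 and 62.5 FPKM in the shCTR libraries against 96.3, 91.4 and 84.4 in the shC8 libraries. Its change was 0.48 (SE 0.0687, limma adjusted p = 0.00779). For both genes the shC8 libraries were well apart from the controls, and both were called in all 6 fits without 1 library.

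IFI35, whose product binds the interferon-inducible protein NMI, measured 7.47, 7.51 and 7.15 FPKM in the shCTR libraries against 11, 9.66 and 8.73 in the shC8 libraries. The change was 0.36 (SE 0.0881, limma adjusted p = 0.0394), and it was called in 1 of the 6 fits without 1 library, the one without shC8 3 (limma adjusted p up to 0.107 in the others). XAF1, a pro-apoptotic gene, had values of 0.254 to 0.434 FPKM in shCTR and 0.515 to 0.752 in shC8, which do not overlap, and was below the filter. A gene on the opposite strand covers 38.3% of the exonic bases of XAF1. The library kit keeps strand, but whether counting used it was not given. IFI27 lay between 0.0741 and 0.367 FPKM with overlapping groups. SP110, a nuclear body gene, changed by 0.04 (95% interval -0.20 to 0.29).

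The ligand and receptor genes gave few differences. Of 9 interferon genes, 8 were listed at 0 in every library, IFNB1 among them, and IFNG was at 0.0745 FPKM in shC8 2 and 0 elsewhere. A value of 0 in this table can also be a failed estimate. IFNAR1 measured 12.6, 13.1 and 13.9 FPKM in the shCTR libraries against 12.7, 12.1 and 12.6 in the shC8 libraries, a change of -0.08 (95% interval -0.23 to 0.07). IFNAR2 changed by -0.03 (95% interval -0.28 to 0.22). IL10RB, a receptor chain shared by interferon lambda and interleukin-10, rose from 17.4, 16.4 and 19.4 FPKM in shCTR to 27.1, 26.2 and 24.7 in shC8 (change 0.53, SE 0.0773, limma adjusted p = 0.00814). Its partner for interferon lambda, IFNLR1 (IL28RA in the table), was at or below 0.146 FPKM.

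Among the kinases and STATs, STAT3 alone was called. STAT3, which relays signals of interleukin-6 type cytokines, measured 19.1, 21.5 and 22.3 FPKM in the shCTR libraries against 29.8, 33.5 and 33.2 in the shC8 libraries. The change was 0.59 (SE 0.0806, limma adjusted p = 0.00627), and both STAT3 and IL10RB were called in all 6 fits without 1 library. STAT2 changed by -0.16 (95% interval -0.35 to 0.03), JAK1 by 0.08 (95% interval -0.08 to 0.23) and IRF3 by -0.01 (95% interval -0.22 to 0.19). TYK2 changed by 0.23 (limma adjusted p = 0.0933) and was called with the replicate block (limma adjusted p = 0.0235).

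MAVS, the mitochondrial adaptor of the RNA sensors, fell by 0.31 on the log2 scale (limma adjusted p = 0.034), and SOCS1, a feedback inhibitor of JAK kinases, fell by 0.51 (limma adjusted p = 0.0438). SOCS1 measured 4, 4.49 and 3.03 FPKM in the shCTR libraries against 2.09, 2.49 and 2.56 in the shC8 libraries. The MAVS call ended in each fit without 1 library (limma adjusted p up to 0.112), and that of SOCS1 in 5 of 6 (up to 0.126). In all, 2 of 25 tested genes of the pathway list of 40 rose (8%) and 2 fell (8%), near the shares of 7.14% and 4.94% over all tested genes. The list's median change was 0.03.

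A further list of 40 genes known as interferon-inducible, which shares 2 genes with the pathway list, held 28 tested genes. Of these, 2 rose (7.14%) and 0 fell in limma's test, and 2 of 28 equals the share over all tested genes. NLRC5, the activator of class I HLA genes, went from 4.83, 4.94 and 4.39 FPKM in shCTR to 6.74, 7.05 and 6.58 in shC8 (change 0.45, SE 0.0731, limma adjusted p = 0.0116). N4BP1, an RNA-cleaving inhibitor of inflammatory signalling, went from 8.91, 8.47 and 8.22 to 10.7, 10.9 and 11.1 FPKM (change 0.32, SE 0.0631, limma adjusted p = 0.0204). NLRC5 was called in all 6 fits without 1 library and N4BP1 in 2. The 28 changes ran from -0.17 to 0.45, with a median of 0.12. With the replicate block 7 rose and 1 fell, in a fit where 16.1% of all tested genes were called higher and 10.6% lower. The chemokine genes CXCL9, CXCL10 and CXCL11, classic targets of interferon gamma, were at or below 0.157 FPKM in every library.

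Of the 11 called members, 5 kept their call in each of the 6 fits that leave out 1 library, namely IFITM3, GBP2, IFI6, LGALS3BP and OASL. In these fits 5.54%, 5.55% and 7.24% of all tested genes were called without shCTR 1, 2 and 3, and 11.6%, 4.95% and 4.11% without shC8 1, 2 and 3. With no filter on low values 7 of the 11 kept their call, and IFI44L, IFI44, ISG15 and IFI35 lost it (limma adjusted p = 0.0552, 0.0778, 0.0664 and 0.0784), while OAS1 and IFITM1 were called. The call was also lost for MAVS and SOCS1 (limma adjusted p = 0.0659 and 0.0949). With the replicate block 15 members were called, where 26.6% of all tested genes were. Of these, 11 were higher (16.1% of all genes) and 4 lower (10.6% of all genes). They were the 11 named above together with IFITM2, PARP14, SAMD9 and TRIM22.

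**Figure D5:**
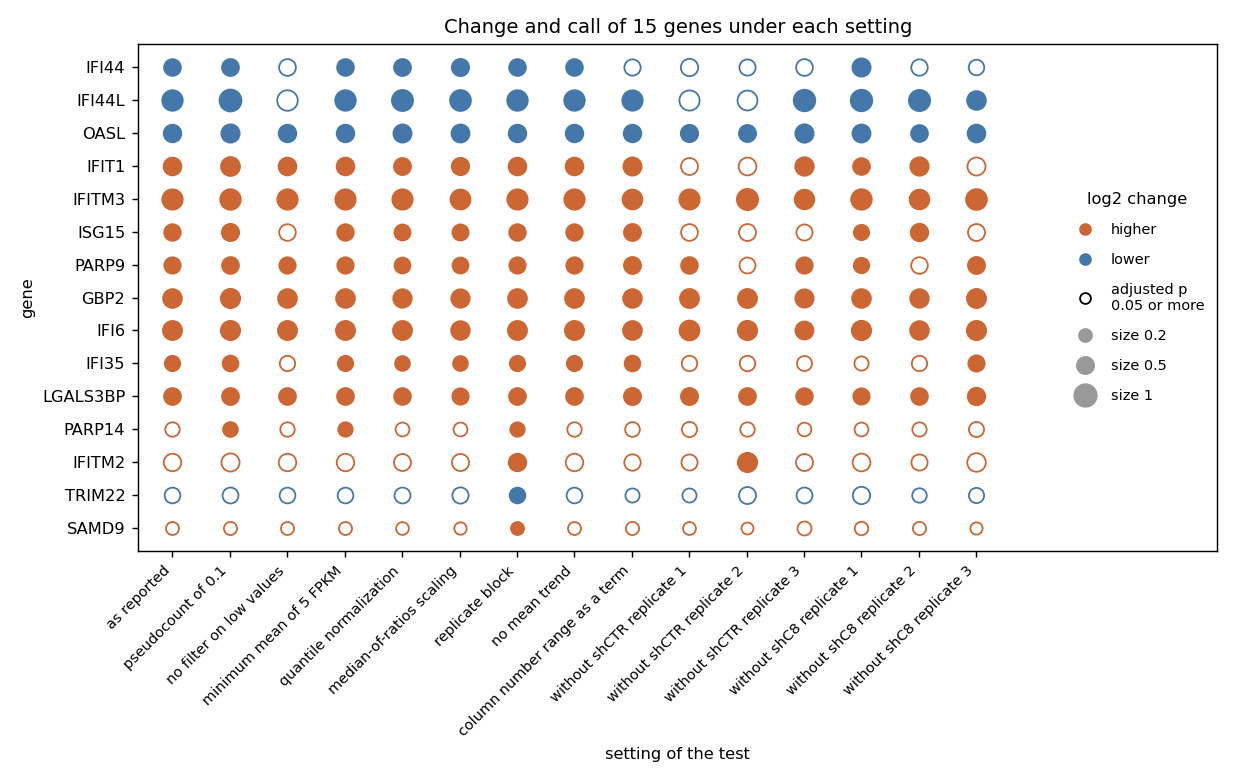
Change (size of the point) and call (filled for a limma adjusted p under 0.05) of the 11 called members and of IFITM2, PARP14, TRIM22 and SAMD9 under each setting of the test, orange for higher and blue for lower in shC8. IFITM3, GBP2, IFI6, LGALS3BP and OASL are filled in every column.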

How the data were processed

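RNA-seq was made from total RNA of 6 U87 samples, after ribosomal depletion and with a stranded kit, per the labels' protocols. The authors deposited FPKM values in 1 table. Per the submitters' processing notes, TopHat, Cufflinks and Cuffdiff were used with hg38; no version is given. Whether strand was used in counting was not given in the sources used here. Of 23290 genes, 4566 were at 0 in every library.

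Values were transformed to log2(FPKM + 1), and genes averaging 1 FPKM or more were tested with limma 3.58.1 in R 4.3.3 (2 groups, mean trend, Benjamini-Hochberg adjustment over all tested genes). Single ratios and CASP8 were tested by exact permutation. FPKM hold no read numbers, so no counting intervals are given. The test was checked on simulated data. Gene positions, exon overlaps and shared 50-base words came from GENCODE (GRCh38), and promoter windows from RefSeq, read with Python 3.11.15.

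The members and lists were chosen with earlier results of these data known. Genes named are all OAS, IFIT, IFITM and IFI44 genes, every other member that was called, the remaining members by level, and from the other lists the called genes and those of type I signalling, of which 1 is not reported here. IL10RB's partner IFNLR1, IFNG, TYROBP and other single markers, and the CXCL chemokines were named after their values were seen. Deviations of same-numbered libraries from their group means correlated at 0.397, 0.266 and 0.291, all above 0.1. No label states such a pairing, so the calls come from the fit without it. The fit with the replicate number as a block is given beside a member or pathway gene whose call it changes. For the other interferon-inducible genes it is given as counts, and for single markers it is not given. Alternatives were another pseudocount, 2 other filters, quantile and median-of-ratios scaling, a replicate block, no mean trend, a term for the column number range, and leaving out each library.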

Additional observations from a re-analysis of the deposited data

How the results depend on the processing

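Scaling did not change the call of any member, but it moved the median of all genes from 0.0376 to 0.00265 (median-of-ratios) or 0.00378 (quantile). With the replicate block 1862 genes were higher and 1224 lower (828 and 573 without it), and of the other interferon-inducible genes 7 were higher and 1 lower (2 and 0 without it). The block ended no call among the 32 single genes followed. Without 1 library the counts over all genes ran from 261 to 699 higher and from 216 to 647 lower. The members ran from 5 to 7 higher and from 1 to 3 lower, the pathway list from 0 to 1 lower and the other interferon-inducible genes from 1 to 2 higher. With no filter 1 member and 0 pathway genes were lower. The pathway list had 1 lower gene with a minimum mean of 5 FPKM and 1 with the column number term, which gave 4 higher among the other interferon-inducible genes. The OAS median was -0.0249 with no filter and -0.54 with the minimum of 5 FPKM, and the IFIT median -0.0222 with that minimum, since other genes were then tested. Uncalled values near 0 changed sign. With the column number term IFIT5 was 0.00818, IFNAR2 0.0165 and IRF3 0.0215. Without 1 library OAS3 ran from -0.136 to 0.0554, IFIT5 from -0.0603 to 0.0200, IFNAR2 from -0.126 to 0.0616 and IRF3 from -0.0852 to 0.0657. The cause was not tested. Of 444 values for 32 genes under 14 settings, 382 kept direction and call, 44 lost the call, 8 gained it and 10 changed sign. Depth is unknown, so values well under 1 FPKM carry no stated counting error.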
